A study of Homo sapiens with 36 samples.

Results

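The ERBB receptors and their ligands were read out as 10 genes of the 27852 named genes in the count table. The members were 4 receptors, EGFR, ERBB2, ERBB3 and ERBB4, and 6 ligands, AREG, EREG, TGFA, HBEGF, BTC and NRG1. They were taken by gene symbol, the set having been chosen with earlier results of these data known, and the 99 transcripts listed under these symbols were summed per gene. RNA was sequenced from 4 human prostate cancer (PCa) lines grown for 5 days in 4 cultures, 36 libraries in 16 groups. The study set lines that form osteoblastic bone metastases (BPCa: C4-2 and its bone-derived subline C4-2B, both descended from LNCaP) against lines that form osteolytic ones (LPCa: DU145 and 22Rv1). For each line there were 3 mono-cultures without added cytokine, 2 co-cultures with MG63, 2 mono-cultures with RANKL at 50 ng/mL and 2 co-cultures with RAW264.7 and the same RANKL. The osteosarcoma line MG63, of human origin, stood in for osteoblasts (OB-like cells). The macrophage line RAW264.7 is from mouse and can form osteoclasts under RANKL, the cytokine that drives their differentiation. In the co-cultures the partner cells grew in a separate well joined to the PCa cells through a filter. Each line is an established cell line, so the contrast of BPCa with LPCa rests on 2 lines a side. The study describes the data in its bar graphs as from 3 or more independent experiments, whereas most groups here have 2 libraries. The labels do not say whether replicates were separate cultures. P-values therefore measure the spread between these libraries, which may be technical.

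ERBB receptors are cell-surface tyrosine kinases that work as pairs. EGFR binds AREG, TGFA, EREG, HBEGF and BTC, ERBB3 and ERBB4 bind the neuregulins such as NRG1, and ERBB4 also binds EREG, HBEGF and BTC. ERBB2 has no known ligand of its own and ERBB3 has little kinase activity, so both signal mainly through a partner. The ligands are made as membrane-anchored precursors that proteases of the ADAM family, ADAM17 above all, cut free, and the receptors feed the MAPK and PI3K pathways that drive growth of prostate epithelium.

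Levels are given as TPM (transcripts per 1000000), the deposited length-scaled values divided by the library's sum, so that they can be compared between genes. Sums of the deposited values ran from 23932472 to 36719047 over the 12 libraries of mono-culture lacking RANKL, and the other 24 libraries held 9593426 to 15418211. Depth and culture can therefore not be told apart in any comparison with the mono-cultures without RANKL. The 2 DU145 co-cultures with MG63 differed from each other by a median of 0.36 on the log2 scale over genes, against 0.067 to 0.13 between replicates of the other 15 groups. Replicate 2 lay farther from the DU145 mono-cultures (0.40) than replicate 1 (0.17), so the values from that pair that depend on it are also given without replicate 2. A fit that leaves out 1 library of a group of 2 takes its SE and p from the spread of the other groups, and assumes that the lone library varies as they do. Luminal and androgen receptor markers summed to 34.9–44.0 TPM over 8 genes in DU145, which is known to lack androgen receptor, and to 1092–8899 TPM in the other lines. The 12 mesenchymal markers summed to 6.003–26.1 TPM with MG63 and 6.09–23.7 TPM without partner cells over all lines, and the 10 human macrophage and osteoclast markers to 7.26–23.4 TPM with RAW264.7 and 7.49–31.7 TPM without partner cells. Among the macrophage and osteoclast markers the highest level in any library ran from 0 for TYROBP to 21.5 TPM for the protease gene CTSK, and PTPRC was at 1.78–4.10 TPM in all 36 libraries. Among the mesenchymal markers it ran from 0.24 TPM for THY1 and 0.28 TPM for POSTN to 6.68 TPM for COL1A1 and 13.8 TPM for COL5A2.

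AREG and EREG are neighbours on chromosome 4. AREG lies at chr4:74445134-74455009 and EREG at chr4:74365143-74388751, both on the plus strand, and BTC follows at chr4:74744759-74794686 on the minus strand (GRCh38, GENCODE 29). The 250 bases before their RefSeq start sites are shown because both genes were at their highest in DU145 whereas between cultures AREG passed and EREG did not in the tests on all libraries. Capitals mark the TATA box TATAAA and, in AREG only, the cyclic AMP response element TGACGTCA (GRCh38.p14, plus strand, AREG chr4:74444886-74445135, EREG chr4:74364895-74365144).
AREG: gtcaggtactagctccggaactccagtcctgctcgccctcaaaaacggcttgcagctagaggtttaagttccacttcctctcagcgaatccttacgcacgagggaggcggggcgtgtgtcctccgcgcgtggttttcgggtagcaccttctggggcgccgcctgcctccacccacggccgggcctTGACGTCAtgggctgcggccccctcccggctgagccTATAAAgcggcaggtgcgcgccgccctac
EREG: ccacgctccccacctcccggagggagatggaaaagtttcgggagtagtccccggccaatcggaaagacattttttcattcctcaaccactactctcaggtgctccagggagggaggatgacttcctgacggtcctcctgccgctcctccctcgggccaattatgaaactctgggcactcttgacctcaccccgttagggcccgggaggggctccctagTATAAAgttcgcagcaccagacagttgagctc
The TATA box began 29 bases before the start of AREG and 32 bases before that of EREG, and the response element 65 bases before the start of AREG. Of 35116 windows of the same length, 10.7% held TATAAA and 1.65% held TGACGTCA on either strand. Neither sequence was found in the window of HBEGF, BTC, ERBB2 or ERBB4 or in either window of TGFA, whereas 1 of the 2 windows of EGFR held TATAAA. Windows were found for 8 of the 10 members. The letters TGANTCA of an AP-1 site, held by 6.57% of the windows, were in neither sequence. A match of letters is a description and no measurement of binding.

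In mono-culture, DU145 held most of the ligands and least ERBB3. The receptor EGFR (chr7:55019021-55211628, plus strand) was at 85.2, 82.6 and 85.1 TPM in DU145, 96.2, 98.3 and 95.4 TPM in 22Rv1, 68.6, 64.5 and 74.4 TPM in C4-2B and 47.2, 48.3 and 47.3 TPM in C4-2. C4-2 was the lowest of the lines, and its mono-cultures overlapped with no other line. Over 13437 genes tested with edgeR's quasi-likelihood test and Benjamini-Hochberg adjustment, EGFR was lower in C4-2 than in C4-2B by a log2 difference of -0.58 ± 0.13 (SE; adjusted p = 0.0059) and higher in 22Rv1 than in C4-2B by 0.39 ± 0.13 (adjusted p = 0.013). Between DU145 and 22Rv1, and between DU145 and C4-2B, the differences of -0.18 ± 0.13 and 0.21 ± 0.13 did not pass (edgeR adjusted p = 0.20 and 0.15).

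ERBB3 (chr12:56076799-56103505, plus strand), the neuregulin receptor, was at 13.2, 15.8 and 15.0 TPM in DU145. It was at 76.5, 79.7 and 79.3 TPM in 22Rv1, 93.7, 95.01 and 88.7 TPM in C4-2, and 84.6, 81.2 and 84.5 TPM in C4-2B. DU145 stood below all libraries of the other lines, with log2 differences of -2.41 ± 0.08, -2.69 ± 0.08 and -2.59 ± 0.08 against 22Rv1, C4-2 and C4-2B (edgeR adjusted p = 1.5e-13, 3.7e-14 and 5.6e-14). C4-2 and C4-2B did not differ beyond the spread (0.10 ± 0.08, edgeR adjusted p = 0.47). The smaller difference of -0.18 between 22Rv1 and C4-2B passed (edgeR adjusted p = 0.047), but not after leaving out any 1 of the 6 libraries.

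ERBB4 (chr2:211375717-212538841, minus strand), the second neuregulin receptor, was detected in 22Rv1 at 3.41, 3.64 and 3.27 TPM, from 495 to 639 reads. In the other 27 libraries it had at most 3 reads. With the floor set at 3 reads per library, its mean share of reads in 22Rv1 mono-cultures was at least 206-fold higher than in DU145, 193-fold higher than in C4-2 and 210-fold higher than in C4-2B. Such bounds cover counting error only.

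ERBB2 (chr17:39687914-39730426, plus strand), the partner receptor without a ligand, was at 14.3, 19.9 and 29 TPM in DU145 and 14.7, 15.2 and 11.5 TPM in 22Rv1. It was at 38.4, 26.0 and 20.1 TPM in C4-2 and 21.7, 28.6 and 22.8 TPM in C4-2B. C4-2 and C4-2B lay above all 22Rv1 libraries, whereas DU145 overlapped with every line. The log2 differences of 22Rv1 from C4-2 (-1.08 ± 0.34, edgeR adjusted p = 0.0095) and from C4-2B (-0.92 ± 0.34, edgeR adjusted p = 0.023) passed, but lost the call after leaving out 1 of the 6 libraries in 1 case and in 2 cases. The pooled standard deviation of ERBB2 within groups, 0.42 on the log2 scale with 20 degrees of freedom, was larger than that of 97.9% of 13446 genes, whose median was 0.14. ERBB2 has 22 transcripts in the table, 7 of them with retained introns, and the full-length coding transcript ERBB2-201 alone ran from 0.040 to 14.9 TPM among DU145 libraries. Transcript values are estimates that share reads, and the part of this sharing in the spread was not tested.

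Among the ligands, AREG (amphiregulin) was at 81.8, 73.8 and 84.2 TPM in DU145 and at 6.66, 4.54 and 7.62 TPM in 22Rv1. C4-2 had at most 2 reads of AREG per mono-culture, and all 3 C4-2B mono-cultures had 0. DU145 was thus above 22Rv1 by 3.67 ± 0.18 on the log2 scale (edgeR adjusted p = 9.7e-11), at least 499-fold above C4-2 and at least 542-fold above C4-2B.

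EREG (epiregulin) was at 45.7, 47.5 and 49.7 TPM in DU145 mono-cultures. In all 27 libraries of the other lines it stayed between 0 and 0.93 TPM, from at most 23.9 estimated reads. The log2 differences of DU145 from 22Rv1, C4-2 and C4-2B were 6.74 ± 0.22, 7.41 ± 0.23 and 7.25 ± 0.22 (edgeR adjusted p = 4.5e-14, 2.5e-14 and 2.4e-14).

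TGFA (transforming growth factor alpha, chr2:70447280-70554193, minus strand) was at 19.1, 19.3 and 19.2 TPM in DU145 and at 1.38, 1.33 and 1.22 TPM in 22Rv1. C4-2 (0.28 to 0.31 TPM) and C4-2B (0.20 to 0.28 TPM) were lower, and their small difference did not pass (edgeR adjusted p = 0.68). DU145 exceeded 22Rv1 by 3.88 ± 0.14 and 22Rv1 exceeded C4-2 by 2.05 ± 0.20 on the log2 scale (edgeR adjusted p = 2.3e-13 and 1.1e-07).

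HBEGF (heparin-binding EGF-like growth factor, chr5:140332843-140346631, minus strand) was at 64.8, 59.5 and 65.0 TPM in DU145 mono-cultures and between 1.80 and 4.02 TPM in all 27 libraries of the other lines. Against 22Rv1, C4-2 and C4-2B the log2 differences were 4.65 ± 0.14, 4.29 ± 0.13 and 4.87 ± 0.14 (edgeR adjusted p = 1.4e-14, 2.2e-14 and 7.6e-15). C4-2 exceeded C4-2B by 0.58 ± 0.15 (edgeR adjusted p = 0.019), a call that was lost on leaving out any of 3 of the 6 libraries, with an adjusted p of up to 0.081. The difference of 22Rv1 from C4-2 (-0.36 ± 0.15, edgeR adjusted p = 0.047) passed, but not after leaving out any 1 of the 6 libraries.

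BTC (betacellulin) and NRG1 (neuregulin 1) did not reach 100 counts in any library and were not tested. BTC was at 1.89, 1.77 and 2.19 TPM in DU145 and 1.41, 1.32 and 1.22 TPM in 22Rv1, with at most 2 reads in any C4-2 or C4-2B library. Its mean share of reads in DU145 mono-cultures was at least 23-fold that in C4-2 and 25-fold that in C4-2B. NRG1 was detected in DU145 at 1.07, 0.83 and 0.62 TPM, from at most 36 reads. It had 0 reads in all 22Rv1 and C4-2 libraries, and the floor of 3 reads allows a share of up to 0.30 per 1000000 reads in the shallowest library. C4-2B had 1 read in 1 library with MG63 and 1 read in 1 library with RANKL.

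**Figure D1:**
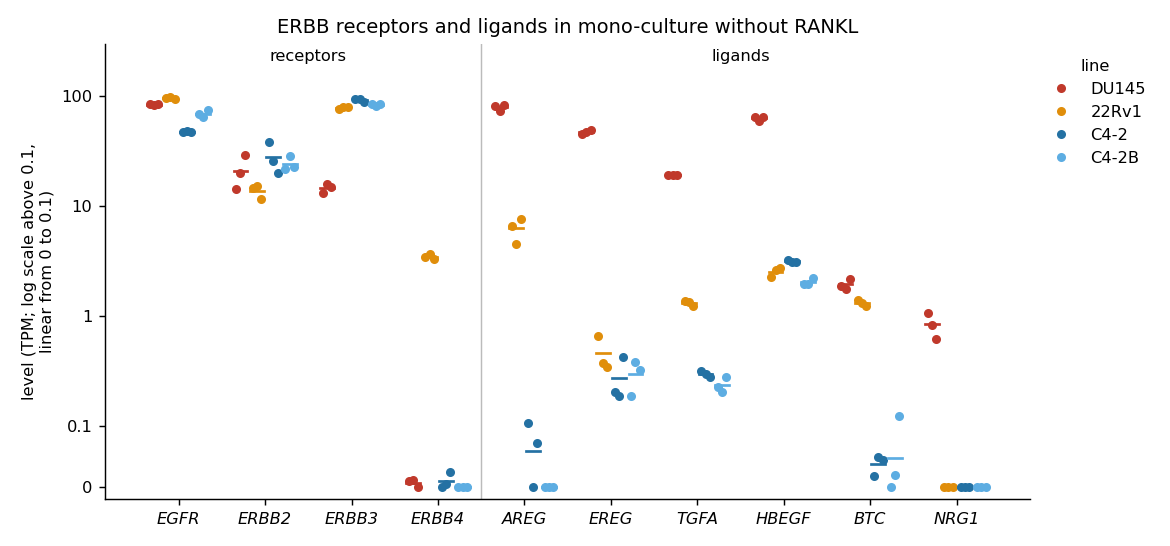
Levels of the 10 members (TPM, logarithmic above 0.1 and linear from 0 to 0.1) in the 3 mono-cultures of each line without RANKL; points are libraries and bars are means. DU145 stands above the other lines for AREG, EREG, TGFA, HBEGF, BTC and NRG1 and below them for ERBB3, and ERBB4 is detected in 22Rv1.

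Of the 8 members tested, 6 passed between DU145 and 22Rv1, 6 between DU145 and C4-2, and 5 between DU145 and C4-2B, where 79.6%, 78.3% and 79% of all genes passed. Between 22Rv1 and C4-2 it was 7 of 8 (72% of all genes), between 22Rv1 and C4-2B 6 of 8 (72.5%), and between C4-2 and its subline C4-2B 2 of 8 (13.6%).

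At the level of transcripts, EGFR and AREG were each carried by their first-listed coding form. EGFR-201 (1210 codons) made up 81.8–94.7% of the gene's level, taken from the lowest and the highest line, and AREG-201 98.2% or more in DU145 and 22Rv1. ERBB3 was divided. Its long form ERBB3-201 (1342 codons) was accompanied by the short coding transcript ERBB3-202 (183 codons, 1027 bases), picked out after its values were seen. ERBB3-202 was at 10.1–14.4 TPM in C4-2 and 9.01–14.2 TPM in C4-2B, at 1.86–6.34 TPM in DU145, and at 0–3.43 TPM in 22Rv1, whose ERBB3-201 (42.4–55.6 TPM) overlapped with that of C4-2 (37.0–55.8 TPM). The ratio of ERBB3-202 to ERBB3-201 was 0 to 0.071 in the 9 libraries of 22Rv1, 0.19 to 0.34 in C4-2, 0.17 to 0.34 in C4-2B and 0.26 to 1.3 in DU145. The 22Rv1 libraries overlapped with those of no other line. Within C4-2 and C4-2B the ratio was 0.19–0.24 and 0.17–0.22 in mono-culture without RANKL. It was 0.25–0.34 and 0.27–0.34 in the other cultures, with no overlap, whereas in 22Rv1 and DU145 these groups overlapped. The part of depth or culture in the ratio was not tested.

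**Figure D2:**
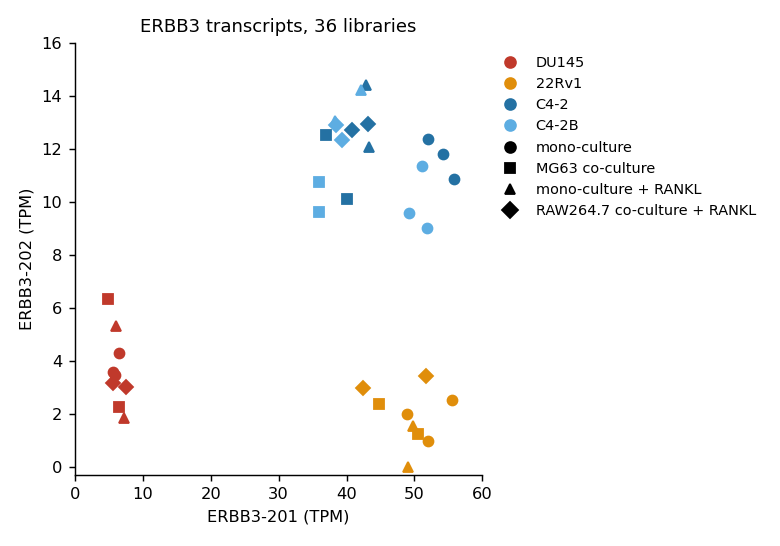
ERBB3-202 against ERBB3-201 (both TPM) in 36 libraries, coloured by line and shaped by culture. The 22Rv1 libraries reach at most 3.43 TPM of ERBB3-202, and all C4-2 and C4-2B libraries are at 9.01 TPM or above.

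Co-culture with MG63 asked whether osteoblast-like cells change the PCa cells. AREG was higher with MG63 in both LPCa lines, EGFR was higher in C4-2, and ERBB3 was lower in both BPCa lines. Against the mono-cultures that received RANKL instead, AREG in DU145 turned to lower (-0.51, edgeR adjusted p = 0.016) and neither ERBB3 change passed (edgeR adjusted p = 0.21 and 0.054). In 22Rv1, AREG was at 13.4 and 12.4 TPM with MG63 against 6.66, 4.54 and 7.62 TPM alone, with no overlap and a log2 fold change of 1.14 ± 0.22 (edgeR adjusted p = 0.0022). In DU145 it was at 112 and 126 TPM against 73.8 to 84.2 TPM alone, again with no overlap (0.64 ± 0.17, edgeR adjusted p = 0.012). Without replicate 2, which leaves 1 co-culture, the DU145 change was 0.56 ± 0.17 (edgeR adjusted p = 0.036). The 12 mesenchymal markers summed to 25.2–26.1 TPM with MG63 and 18.9–22.7 TPM in mono-culture without RANKL in 22Rv1, with no overlap, and to 8.47–15.1 and 7.50–9.57 TPM in DU145, where 1 of the 3 tested rose. The part of MG63 RNA in the AREG results was not tested. In C4-2 and C4-2B AREG had 0 to 3 reads in either culture.

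EGFR in C4-2 was at 67.2 and 57.2 TPM with MG63 and at 47.2 to 48.3 TPM alone. The groups did not overlap and the log2 fold change was 0.49 ± 0.15 (edgeR adjusted p = 0.043), but the call was lost on leaving out any 1 of the 5 libraries, with an adjusted p of up to 0.29. In C4-2B EGFR was at 76.1 and 80.6 TPM against 64.5 to 74.4 TPM (0.24 ± 0.15, edgeR adjusted p = 0.38), and in 22Rv1 at 95.2 and 85.5 TPM against 95.4 to 98.3 TPM (0.01 ± 0.15, edgeR adjusted p = 0.97). In DU145 the 2 co-cultures disagreed, at 91.4 and 52.0 TPM. The DU145 log2 fold change was -0.15 ± 0.15 (edgeR adjusted p = 0.45) and, without replicate 2, 0.20 ± 0.07 (edgeR adjusted p = 0.085).

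ERBB3 was at 66.4 and 65.3 TPM in C4-2 with MG63 and at 88.7 to 95.01 TPM alone. In C4-2B it was at 59.2 and 61.8 TPM with MG63 and at 81.2 to 84.6 TPM alone. Neither pair of groups overlapped, and the log2 fold changes were -0.38 ± 0.09 and -0.40 ± 0.09 (edgeR adjusted p = 0.012 and 0.011). The libraries with RANKL, in mono-culture or with RAW264.7, were also below these mono-cultures, at 67.6–83.6 TPM in C4-2 and 69.9–75.0 TPM in C4-2B. Leaving out either MG63 library of the line ended the call in C4-2 (adjusted p of up to 0.10) and in C4-2B (adjusted p of up to 0.13), whereas the fold changes stayed between -0.36 and -0.43. In 22Rv1 ERBB3 was at 73.0 and 64.4 TPM with MG63 against 76.5 to 79.7 TPM alone (-0.08 ± 0.09, edgeR adjusted p = 0.56), and in DU145 at 13.0 and 17.9 TPM against 13.2 to 15.8 TPM (0.13 ± 0.10, edgeR adjusted p = 0.34; without replicate 2, -0.10 ± 0.11, edgeR adjusted p = 0.65).

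In all, 1 of 8 members passed in DU145 (30.5% of all 13437 genes passed), 1 in 22Rv1 (20.4%), 2 in C4-2 (10.1%) and 1 in C4-2B (7.41%). EREG in DU145 was at 69.6 and 49.1 TPM with MG63 against 45.7 to 49.7 TPM alone (0.39 ± 0.15, edgeR adjusted p = 0.061), and the 2 co-cultures disagreed, the change being 0.63 ± 0.13 without replicate 2 and 0.11 ± 0.14 without replicate 1 (edgeR adjusted p = 0.0045 and 0.56, each with 1 co-culture). HBEGF in DU145 was at 55.5 and 82.2 TPM, on either side of its 59.5 to 65.0 TPM alone (0.19 ± 0.12, edgeR adjusted p = 0.23; without replicate 2, -0.11 ± 0.09, edgeR adjusted p = 0.48). ERBB2 in DU145 was at 15.0 and 51.4 TPM, and the higher value came from the same replicate 2 (0.71 ± 0.38, edgeR adjusted p = 0.17; without replicate 2, -0.40 ± 0.41, edgeR adjusted p = 0.58). With replicate 1 left out instead, so that replicate 2 stood alone, the DU145 values were -0.63 for EGFR, 1.35 for ERBB2, 0.35 for ERBB3 and 0.44 for HBEGF (edgeR adjusted p of 0.012 or less for each, from the spread of other groups).

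The difference of the MG63 change between BPCa and LPCa was tested directly. ERBB3 passed, with a change lower by -0.42 ± 0.09 on the log2 scale in BPCa than in LPCa (edgeR adjusted p = 0.012), and it was the only 1 of 8 members to pass (9.85% of all genes). It passed in each of 20 fits that left out 1 library, with values from -0.52 to -0.30. For EGFR the difference was 0.44 ± 0.15 (edgeR adjusted p = 0.070), and without DU145 replicate 2 it was 0.26 (edgeR adjusted p = 0.013). Between DU145 and 22Rv1, 0 of 8 members passed in edgeR (10.4% of all genes), with 0 at an unadjusted p under 0.05 and 0 in DESeq2. Between C4-2B and C4-2, 0 of 8 passed in edgeR (0.179% of all genes), with 1 at an unadjusted p under 0.05 and 0 in DESeq2. The larger AREG change in 22Rv1 than in DU145 was thus not separable from the spread (DU145 minus 22Rv1, -0.50 ± 0.28, edgeR adjusted p = 0.27), although it passed on the control with RANKL.

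Since the mono-cultures without RANKL were the deeper libraries, the MG63 co-cultures were also set against the mono-cultures with RANKL, which had like depth but another medium. On that control 3 of 8 members passed in DU145 (36.5% of 13454 genes), 2 in 22Rv1 (15.3%), 1 in C4-2 (10.3%) and 0 in C4-2B (7.63%; 2 at an unadjusted p under 0.05; DESeq2 was not run on it). AREG in 22Rv1 stayed higher (0.99 ± 0.23, edgeR adjusted p = 0.0052), as did EGFR in C4-2 (0.44 ± 0.13, edgeR adjusted p = 0.029). AREG in DU145 turned to -0.51 ± 0.16 (edgeR adjusted p = 0.016). ERBB3 was -0.22 ± 0.10 in C4-2 and -0.32 ± 0.10 in C4-2B (edgeR adjusted p = 0.21 and 0.054), and the BPCa minus LPCa difference of ERBB3 was -0.22 ± 0.11 (edgeR adjusted p = 0.16). On recovered reads both ERBB3 changes passed at smaller size (-0.15 and -0.21, edgeR adjusted p = 0.049 and 0.0074). The DU145 minus 22Rv1 difference of AREG was -1.502 ± 0.28 (edgeR adjusted p = 6.0e-04), and those of EGFR (-1.22), ERBB2 (1.77) and HBEGF (1.007) passed too (edgeR adjusted p = 3.3e-05, 0.035 and 0.022). Without DU145 replicate 2 the differences of AREG (-1.62) and EGFR (-0.89) passed, while those of ERBB2 (0.62) and HBEGF (0.67) did not (edgeR adjusted p = 0.48 and 0.083). Added calls were EGFR in 22Rv1 (0.95 ± 0.13), HBEGF in DU145 (1.39 ± 0.14) and ERBB2 in DU145 (1.15 ± 0.42), with edgeR adjusted p of 1.0e-05, 3.7e-08 and 0.037. The ERBB2 call rested on replicate 2, since replicate 1 at 15.0 TPM lay between the mono-cultures with RANKL at 10.01 and 19.99 TPM, and without replicate 2 the change was -0.01 ± 0.45 (edgeR adjusted p = 1.00). Without replicate 2 HBEGF was 1.05 ± 0.11, AREG -0.63 ± 0.16 and EREG 0.58 ± 0.17 in DU145, and all passed (edgeR adjusted p = 1.2e-07, 0.0052 and 0.017). Without replicate 1 EGFR in DU145 was -0.70 and ERBB2 1.82, with edgeR adjusted p = 1.4e-07 and 2.9e-04 from the spread of other groups. The part of depth in these results was not tested.

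**Figure D3:**
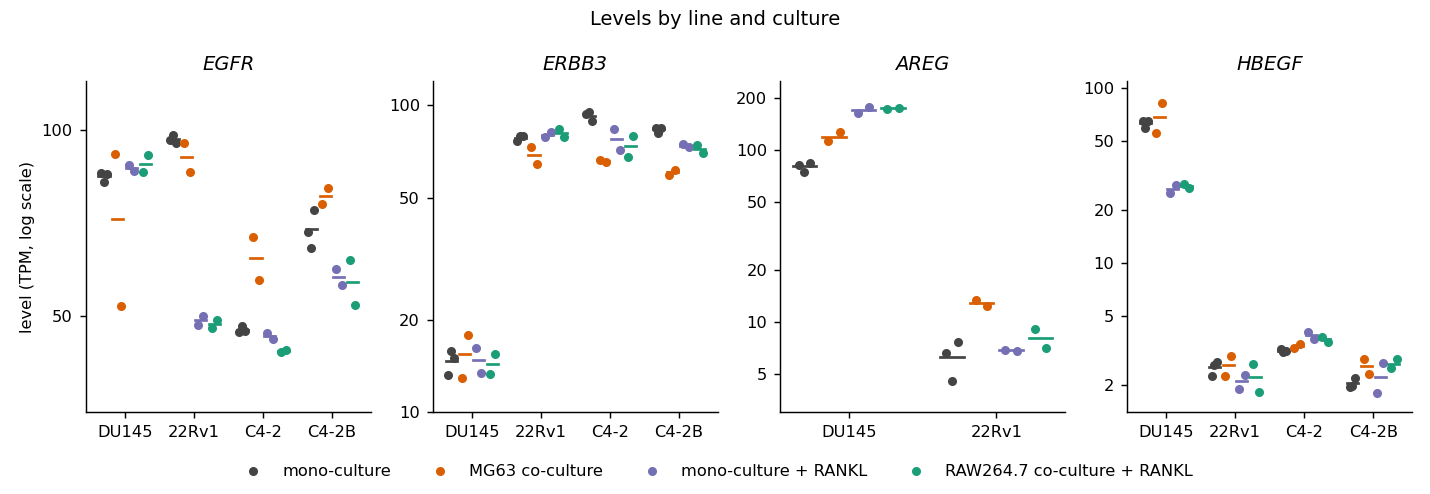
Levels of EGFR, ERBB3, AREG and HBEGF (TPM, log axes that differ between panels) by line and culture, with a point for each library and a bar for each mean; AREG is shown for the 2 lines with over 4 reads. AREG and HBEGF of DU145 sit at 164–178 and 25.2–28.3 TPM in the 4 libraries with RANKL, and EGFR of 22Rv1 at 47.9–50.1 TPM.

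RANKL alone went with marked differences in the LPCa lines. In DU145 AREG was at 164 and 178 TPM with RANKL and at 73.8 to 84.2 TPM without, a log2 fold change of 1.197 ± 0.14 (edgeR adjusted p = 1.1e-06 over 13454 genes). HBEGF of the same libraries moved the other way, to 25.2 and 27.9 TPM from 59.5 to 65.0 TPM (-1.15 ± 0.13, edgeR adjusted p = 1.4e-07). EREG, the neighbour of AREG, was at 45.3 and 47.1 TPM with RANKL and 45.7 to 49.7 TPM without (0.06 ± 0.16, edgeR adjusted p = 0.82). So 2 ligands of EGFR moved in opposite directions in the same cells while EREG and TGFA (-0.25 ± 0.14, edgeR adjusted p = 0.19) did not pass.

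In 22Rv1 the only member to pass in edgeR was the receptor EGFR. EGFR was at 48.5 and 50.1 TPM with RANKL and at 95.4 to 98.3 TPM without, with no overlap (-0.94 ± 0.12, edgeR adjusted p = 3.6e-06). ERBB2 in 22Rv1 was at 24.8 and 30.0 TPM against 11.5 to 15.2 TPM (1.03 ± 0.37, edgeR adjusted p = 0.057), and passed in DESeq2. The ligand TGFA in 22Rv1 was at 0.58 and 0.92 TPM with RANKL against 1.22 to 1.38 TPM, with no overlap (-0.76 ± 0.27, edgeR adjusted p = 0.13). Members passing numbered 2 of 8 in DU145 (32.5% of all genes) and 1 of 8 in 22Rv1 (17.7%). In C4-2 (18.3% of all genes) and C4-2B (14.4%) 0 of 8 passed in edgeR, with 1 each at an unadjusted p under 0.05 and 1 each in DESeq2, in genes with at most 4 reads. The calls of AREG, HBEGF and EGFR held in all fits that left out 1 library of the line. The RANKL libraries had the lower depth, so RANKL and depth cannot be told apart here.

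**Figure D4:**
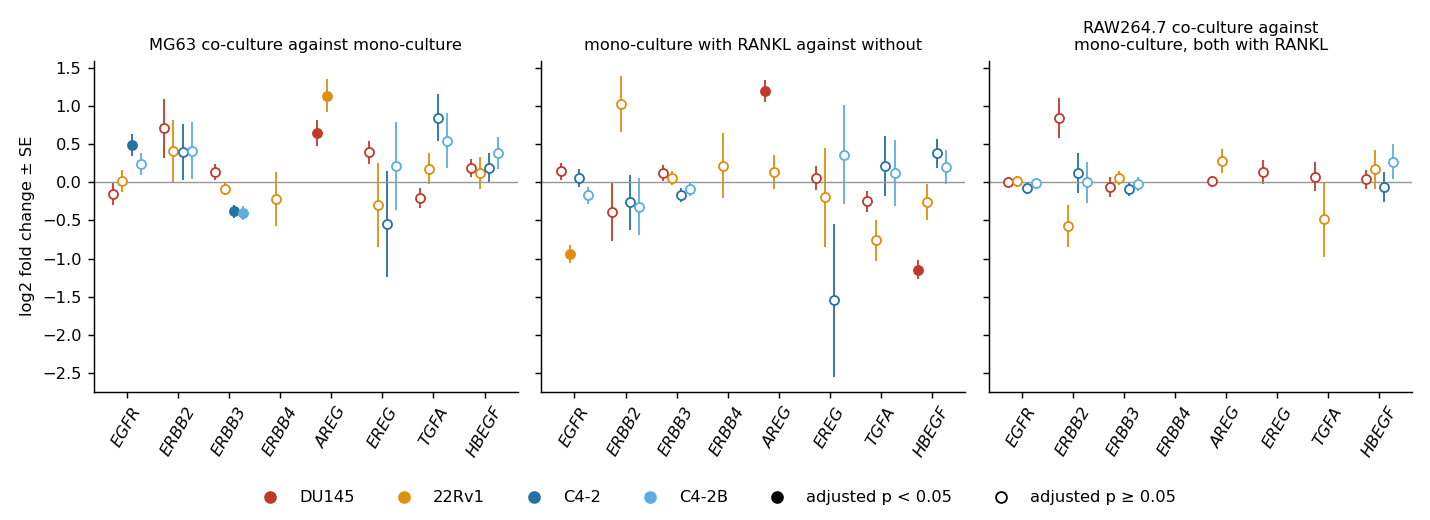
Log2 fold change ± SE of the 8 tested members in each line for MG63 co-culture, RANKL and RAW264.7 co-culture, shown where every library of at least 1 group had 10 reads; filled points have an adjusted p under 0.05. Filled points are 5 with MG63, 3 with RANKL and 0 with RAW264.7.

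Co-culture with RAW264.7 was compared with mono-culture at the same RANKL dose and like depth, over 11525 genes and the 7 members that reached 100 counts there. In edgeR 0 of 7 members passed in DU145 (0.026% of all genes), 22Rv1 (0.00868%), C4-2 (0.00868%) or C4-2B (0.139%). Over the 28 tests 1 had an unadjusted p under 0.05, and DESeq2 called 0. That one was ERBB2 in DU145, at 25.3 and 28.8 TPM with RAW264.7 and 10.01 and 19.99 TPM without (0.84 ± 0.27, edgeR adjusted p = 0.58). In DU145 AREG was at 173 and 174 TPM with RAW264.7 against 164 and 178 TPM (0.01 ± 0.08, edgeR adjusted p = 1.00), and HBEGF at 28.3 and 26.7 TPM against 25.2 and 27.9 TPM (0.04 ± 0.13, edgeR adjusted p = 0.99). EGFR in 22Rv1 was at 47.9 and 49.3 TPM with RAW264.7 against 48.5 and 50.1 TPM (0.01 ± 0.07, edgeR adjusted p = 0.99). In these 3 cases the libraries with and without RAW264.7 overlapped. ERBB2 in 22Rv1 did not overlap, at 15.6 and 20.7 TPM with RAW264.7 against 24.8 and 30.02 TPM without (-0.57 ± 0.27, edgeR adjusted p = 0.81).

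The differences of the RAW264.7 change between lines gave 0 of 7 members in edgeR for BPCa minus LPCa (0.0781% of all genes), for DU145 minus 22Rv1 (0.026%) and for C4-2B minus C4-2 (0%; 410 genes at an unadjusted p under 0.05). Over these 21 tests 2 had an unadjusted p under 0.05, and DESeq2 called 0.

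The wider pathway was followed through lists of other ligands, sheddases, adaptors, inhibitors and MAPK output genes. Among the 10 MAPK output genes, transcripts known to rise with ERK activity, 4 rose and 0 fell with MG63 in DU145 and 3 rose and 1 fell in 22Rv1, whereas 1 rose and 2 fell in C4-2 and 1 rose and 0 fell in C4-2B. Of all genes, 30.5%, 20.4%, 10.1% and 7.41% passed in these lines in either direction, so that the share in DU145 was near the background. The median log2 fold changes of the list were 0.29, 0.16, 0.05 and -0.12 against -0.06, 0.00, -0.01 and 0.00 for all genes. The largest of those that passed in DU145 were the transcription factor ETV4 (1.12 ± 0.16), cyclin D1 (CCND1, 0.47 ± 0.09) and the ephrin receptor EPHA2 (0.31 ± 0.08), with edgeR adjusted p = 2.7e-04, 0.0015 and 0.014. Without DU145 replicate 2 these were 0.93, 0.25 and 0.40 and all passed, and without replicate 1 EPHA2 was 0.21 and did not (edgeR adjusted p = 0.054). In 22Rv1 the largest that passed were the MAPK phosphatase DUSP4 (0.85 ± 0.14), PHLDA1 (0.70 ± 0.09) and EPHA2 (0.47 ± 0.10), with edgeR adjusted p = 6.6e-04, 1.0e-04 and 0.0039. In C4-2 PHLDA1 (-0.68 ± 0.08) and DUSP4 (-0.60 ± 0.14) fell and SPRY4 rose (1.35 ± 0.33), and in C4-2B SPRY4 rose by 1.89 ± 0.35, the edgeR adjusted p being 7.3e-05, 0.012, 0.014 and 0.0035. Outside the naming rule, and named after their values were seen, PHLDA1 rose in DU145 (0.21 ± 0.06, edgeR adjusted p = 0.015) and CCND1 fell in 22Rv1 (-0.46 ± 0.09, edgeR adjusted p = 0.0016). All list changes with MG63 are against the deeper mono-cultures without RANKL. In DU145 the MAPK output list summed to 397.7–428.5 TPM with MG63, 330.9–345.5 TPM in those mono-cultures and 446.5–457.4 TPM in mono-culture with RANKL. In 22Rv1 these sums were 954.8–964.5, 1338–1388 and 1481–1607 TPM. Without DU145 replicate 2 the count for DU145 was again 4 up and 0 down.

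Of the 13 inhibitors, 12 were tested. With MG63, 2 rose and 2 fell in DU145, 0 rose and 1 fell in 22Rv1, 2 rose and 1 fell in C4-2, and 1 rose and 1 fell in C4-2B. Of all genes, 30.5%, 20.4%, 10.1% and 7.41% passed in these lines. The share in DU145 was near this background, and the counts in the other lines are too small to be set above or below it. ERRFI1, which binds and blocks EGFR, fell in DU145 (-0.63 ± 0.13) and 22Rv1 (-0.84 ± 0.15), and LRIG1, which promotes turnover of ERBB receptors, fell in C4-2 (-0.44 ± 0.09) and C4-2B (-0.36 ± 0.09). The edgeR adjusted p of these were 0.0032, 9.8e-04, 0.0049 and 0.021. The DU145 change of ERRFI1 was -0.31 without replicate 2 and -1.03 without replicate 1, and passed in both. The Sprouty gene SPRY1 rose in DU145 (1.29 ± 0.21) and C4-2 (0.45 ± 0.13; edgeR adjusted p = 6.5e-04 and 0.031), and SOCS4 fell in DU145 (-0.31 ± 0.11, edgeR adjusted p = 0.035). Likewise named after their values were seen, SPRED1 rose in DU145 (0.28 ± 0.10, edgeR adjusted p = 0.043). SPRY2 and SPRY4 are on this list as well as on that of the MAPK output, and SPRY4 rose in C4-2 and C4-2B as above. Without replicate 2, 1 inhibitor rose and 1 fell in DU145, and without replicate 1 these counts were 1 and 4.

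Of the 7 adaptors, 1 rose and 3 fell with MG63 in DU145, and 1 fell in 22Rv1, where 30.5% and 20.4% of all genes passed. The 3 that fell in DU145 were GAB2 (-0.50 ± 0.16), SOS2 (-0.42 ± 0.11) and SHC1 (-0.36 ± 0.09), which link receptors to RAS, and SOS2 fell in 22Rv1 (-0.44 ± 0.12), with edgeR adjusted p between 0.0081 and 0.027. The adaptor GRB2, outside the naming rule, rose in DU145 (0.22 ± 0.07, edgeR adjusted p = 0.017). Without DU145 replicate 2, 0 rose and 0 fell in edgeR, and without replicate 1, 1 rose and 6 fell. In C4-2 and C4-2B 0 of 7 passed in edgeR. Of the 8 sheddases and partners, ADAM9 fell in DU145 (-0.43 ± 0.07, edgeR adjusted p = 7.8e-04; without replicate 2, -0.27 and still past the threshold) and RHBDF1, a partner of ADAM17, rose in 22Rv1 (0.31 ± 0.09, edgeR adjusted p = 0.017). Without DU145 replicate 1, 1 sheddase or partner rose and 3 fell in DU145. Of the 5 other ligands, 3 were tested, and EGF (-1.12 ± 0.36, edgeR adjusted p = 0.027) and NRG4 (-0.57 ± 0.17, edgeR adjusted p = 0.021) fell in DU145 and NRG4 in 22Rv1 (-0.50 ± 0.16, edgeR adjusted p = 0.041). Without replicate 2 both DU145 calls were lost, at -0.87 for EGF and -0.42 for NRG4 (edgeR adjusted p = 0.21 for each).

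With RANKL, 7 of the 10 MAPK output genes rose and 0 fell in DU145, a median of 0.73 against -0.01 for all genes. Named after their values were seen, ETV4 rose there by 1.62 ± 0.16 and PHLDA1 by 0.66 ± 0.06 (edgeR adjusted p = 2.6e-08 and 2.5e-08). In 22Rv1 1 rose and 1 fell, in C4-2 3 rose and 0 fell, and in C4-2B 1 rose and 2 fell. Of all genes, 32.5%, 17.7%, 18.3% and 14.4% passed in DU145, 22Rv1, C4-2 and C4-2B. The other pathway lists lay nearer to that background in DU145. There 4 of 12 inhibitors rose and 1 fell, and 0 of 7 adaptors rose and 2 fell. Of the 8 sheddases and partners 0 rose and 2 fell, and 1 of 3 other ligands rose. Outside the pathway lists, 4 of 4 proliferation genes (MKI67, TOP2A, CCNB1 and BUB1) rose in DU145, by a median of 0.21. In 22Rv1, 0 inhibitors rose and 3 fell, and 1 adaptor and 1 sheddase or partner rose. In C4-2, 1 inhibitor rose, 1 fell and 1 other ligand fell, and in C4-2B 1 inhibitor, 1 adaptor and 1 sheddase or partner fell. PHLDA1, also named afterwards, changed in C4-2B with RANKL by -2.15 ± 0.10 (edgeR adjusted p = 1.3e-13). With RAW264.7 none of the genes tested from the 5 lists passed in any line in edgeR.

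Genes whose pattern over the 16 group means was most like that of a member were found by Pearson's r of log2(TPM + 1) among 13446 genes. For EREG they were CST6 and DLC1 (r = 0.999 for both) and for AREG MISP and RADIL (0.997 and 0.996). For ERBB4 they were ADGRB3 and LRFN5 (0.998 and 0.997), for TGFA INPP1 and EDIL3 (0.995 for both), for HBEGF GRK5 and ANKRD2 (0.993 and 0.991), and for ERBB3 UPF3A and ARFIP1 (0.994 and 0.993). EGFR and ERBB2 had no close match, their nearest being NAMPT and GPR180 (0.785 and 0.780) and ZFP36 and UST (0.706 and 0.691). The 16 means come from 4 lines and share their depth by culture, so that a gene separating DU145 from the rest scores high. By Spearman's rho 1 of these 16 genes was again among the nearest 2, and over the 36 libraries 5 were.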

How the data were processed

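Poly-A RNA was sequenced for the study on a DNBSEQ instrument by a service company. The authors quantified transcripts with kallisto, imported them with tximport and deposited 1 table of estimated counts per transcript and library. The labels name the build hg19, whereas 95.4% of its 159837 transcripts, and all 99 of the members, matched GENCODE 29 (GRCh38), which gave lengths, types and coordinates. The deposited estimated counts were already scaled by transcript length. In genes with 1 transcript, multiplying by length brought 63.3–68.5% of values under 50 reads within 0.02 of a whole multiple of 1 constant per library, against 4.05–5.41% as deposited. Estimated reads were recovered in this way and are the reads quoted. Rows repeated in the table (2491) were used once, and rows without a gene symbol held 0.526–0.764% of the sums.

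Values summed per gene were rounded and tested with edgeR 4.0.16 (TMM, quasi-likelihood, R 4.3.3) on genes with 100 counts in at least 1 library, in fits of the 20 libraries without RANKL, the 16 with RANKL, or all 36 for RANKL against none. Calls are Benjamini-Hochberg adjusted p under 0.05 over all genes tested. DESeq2 1.42.0 and the other settings are described in the closing section. Named were the 10 members, up to 3 genes per list with the largest absolute change among calls of each MG63 or RAW264.7 comparison, and the 2 genes most like each member. The members and lists were chosen with earlier results of these data known. Floors cover counting error only. Each SE is the absolute log2 fold change divided by the square root of the edgeR F, and includes the spread between libraries.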

Additional observations from a re-analysis of the deposited data

Results flagged for a closer look

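The change of ERBB3 with MG63 differed between the phenotypes by a test of that difference: BPCa minus LPCa was -0.42 on the log2 scale (edgeR adjusted p = 0.012). ERBB3 was at 81.2–95.01 TPM in mono-culture without RANKL and 59.2–66.4 TPM with MG63 in C4-2 and C4-2B. With RANKL, in mono-culture or with RAW264.7, it was at 67.6–83.6 TPM in C4-2 and 69.9–75.0 TPM in C4-2B. In 22Rv1 it was at 78.7–83.95 TPM with RANKL and 76.5–79.7 TPM in mono-culture without, and in DU145 at 13.3–16.2 and 13.2–15.8 TPM. Against the mono-cultures with RANKL, which share the lower depth, the BPCa minus LPCa difference was -0.22 (edgeR adjusted p = 0.16). The part of depth was not tested.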

How the results depend on the processing

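Members passing for MG63 numbered 5 of 32 tests, 12 on recovered reads against the mono-cultures with RANKL, 9 and 8 on that control without DU145 MG63 replicate 1 or 2, and 3 to 10 on leaving out 1 library, the 10 without DU145 MG63 replicate 1 and 3 without any 1 MG63 library of C4-2 or C4-2B. By a rule of a fold above 2 at an unadjusted p under 0.05 there were 3, AREG in 22Rv1 and, with at most 3 reads, ERBB4 in C4-2 and AREG in C4-2B. The difference of the MG63 change gave 1 of 24, against 2 in DESeq2, 3 on recovered reads, 2 with all 36 libraries in 1 fit, 5 against RANKL mono-cultures on either unit, 8 and 4 on that control without DU145 MG63 replicate 1 or 2, and 1 to 4 on leaving out 1 library. RANKL gave 3 of 32, against 5 by the fold rule, 6 in DESeq2, 8 on recovered reads and 6 with only the mono-cultures in the fit. The difference of the RAW264.7 change gave 0 of 21 and 2 by the fold rule. The count between lines was 32 of 48 and 26 to 32 on leaving out 1 library, the 26 without 22Rv1 mono-culture replicate 3, where ERBB4 fell under the count minimum and was not tested. With RANKL mono-cultures as control, AREG in DU145 with MG63 turned from 0.64 to -0.51 (-0.50 on recovered reads, -0.40 and -0.63 without replicate 1 or 2) and the BPCa minus LPCa difference of HBEGF from 0.13 to -0.89 (-0.92, -1.03 and -0.72). Without DU145 MG63 replicate 2 on that control, that of ERBB2 turned from -0.15 to 1.007 (edgeR adjusted p = 0.049; 0.43 with both libraries), and the cause was not tested. Same-numbered replicates did not deviate together (mean correlation -0.033 for mono-culture and MG63). The replicate block gave 4 calls for MG63, losing EGFR in C4-2 (0.50, edgeR adjusted p = 0.051), 31 between lines, 3 for RANKL, 1 for the difference of the MG63 change, and 0 and 0 for RAW264.7. The planned length scaling was not run, since the values already carry it. Recovered reads, the control with RANKL on them and that control without 1 DU145 MG63 library were chosen after seeing the data.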
